A study of Mus musculus with 11 samples.

Results

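The semaphorins, plexins and neuropilins of the mouse were described in neurons sorted from 3 first-order sensory nuclei of the newborn thalamus. The members were chosen by symbol, as genes of these families with an identifier in the count tables. The rule used no measured value, although the families were picked with earlier results of these data known. They came to 31 of the 54752 gene identifiers, namely 20 semaphorins, 9 plexins and 2 neuropilins. The visual relay is the dorsolateral geniculate nucleus (dLG), the relay for touch of face and whiskers is the ventral posteromedial nucleus (VPM), and the auditory relay is the ventral division of the medial geniculate nucleus (MGv). RNA-seq was available for 4 dLG, 4 VPM and 3 MGv libraries, all from postnatal day 0 mice of the ICR/CD-1 strain. Every mouse carried 1 Gbx2CreER-IRES-EGFP allele and 1 R26lsl-tdTomato allele, so the nuclei shared a genotype with a single unmodified copy of Gbx2. In this line Cre is active after tamoxifen in cells that express Gbx2, an early factor of postmitotic thalamic neurons, and tdTomato then marks them permanently. Sorted tdTomato cells of 4 brains were pooled in each library, so a library averages animals and mixes the neuron types of its nucleus. The question was which guidance ligands and receptors of these families differ among the nuclei at birth, when thalamic axons have reached the cortex and retinal and other sensory inputs are arriving.

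Semaphorins are guidance proteins with a shared sema domain, and plexins are their main receptors. Class 3 semaphorins are secreted and act largely through complexes of a neuropilin, which binds the ligand, with a class A plexin, which signals into the cell. Semaphorins of classes 4 to 6 span the membrane, and Sema7a is held on the membrane by a lipid anchor. These mostly bind plexins directly. Active plexins switch off small GTPases of the Ras and Rap families and act on the cytoskeleton, which can collapse a growth cone or turn an axon. In the thalamus the families are known for sorting thalamocortical axons on their way to the cortex and for shaping the inputs that sensory nuclei receive.

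Total counts were between 10.2 and 23.6 M per library, with the MGv libraries (10.2 to 13.2 M) below those of dLG (15.9 to 22.7 M) and VPM (18.9 to 23.6 M). A count of 3 in a library corresponded to 0.127 to 0.295 CPM, that is counts scaled to a library of 1 M counts, which covers counting error only. Pan-neuronal markers, all 6 detected, summed to between 8617 and 11350 CPM. Of the thalamic relay markers all 7 were detected. They summed to 3012 to 3330 CPM in dLG, 2053 to 2711 in VPM and 3159 to 3511 in MGv. The sum was thus lowest in VPM, but the single markers did not all follow it. Lhx9 stood at 209 to 270 CPM in VPM and 167 to 198 CPM in MGv, while Tcf7l2, Lhx2 and Foxp2 were higher in MGv without overlap. Gbx2, the relay marker that drives the reporter, stood at 272 to 333 CPM in MGv and at 14.2 to 51.6 CPM in dLG and VPM. Markers of GABAergic neurons, cortical neurons, mesenchyme and oligodendrocytes each summed to at most 20.5 CPM in any library, and those of microglia to at most 15.5 CPM. Markers of astrocytes and radial glia summed to 57.0 to 139.6 CPM in dLG, 86.8 to 150.7 in VPM and 76.2 to 191.7 in MGv. Among them Slc1a3 stood at 45.5 to 90.3 CPM in MGv, and in dLG and VPM no library passed 17.9 CPM. Fabp7 and Aldoc did not follow it. Fabp7 stood at 11.96 to 76.88 CPM in MGv, 29.26 to 121.5 in dLG and 46.35 to 103 in VPM. Aldoc stood at 16.62 to 19.53 CPM in MGv, below VPM (27.91 to 46.58) and above dLG (2.1 to 11.77). Red blood cell markers reached 514 CPM in 1 dLG library. Dissociation response genes had a lower sum in VPM (280 to 377 CPM) than in dLG (472 to 715) or MGv (556 to 797), without overlap. Fos, Junb and Egr1 were each lower in VPM without overlap, and the other genes of this list overlapped with dLG or MGv. Ier2 stood at 9.87 to 18.6 CPM in VPM and 9.25 to 18.6 in dLG. Replicate 2 of dLG, replicate 3 of VPM and replicate 1 of MGv stood apart from the rest in Hspa8, a heat shock cognate that most cells express, with 3.05 to 5.56 CPM against 159 to 581 CPM in the other 8 libraries. The part of these differences in the results that follow was not tested, but the counts of calls in each contrast were also made without these 3 libraries. In sorted bulk samples fewer cells of a type and less RNA per cell cannot be told apart.

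Promoter sequence is shown for 3 members that differed among the nuclei, Nrp1, which was higher in dLG, Plxnc1, which was higher in MGv, and Sema7a, a ligand of Plxnc1, which was lower in MGv. Each run holds the 250 bases before the RefSeq start on build GRCm38.p6, read 5′ to 3′ on the strand of the gene. Capitals mark the word GGGCGG, the core of a GC box, or its complement CCGCCC. The windows are chr8:128358823-128359072 on the plus strand for Nrp1, chr10:94944846-94945095 on the minus strand for Plxnc1 and chr9:57939862-57940111 on the plus strand for Sema7a. None overlaps a GENCODE exon of its gene, although that of Nrp1 lies inside the annotated gene because another transcript starts before it.
Nrp1: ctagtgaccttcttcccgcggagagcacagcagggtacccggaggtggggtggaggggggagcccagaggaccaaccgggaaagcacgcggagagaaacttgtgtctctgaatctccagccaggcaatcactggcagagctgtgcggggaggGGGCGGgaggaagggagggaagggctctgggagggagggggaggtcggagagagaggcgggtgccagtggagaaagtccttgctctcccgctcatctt
Plxnc1: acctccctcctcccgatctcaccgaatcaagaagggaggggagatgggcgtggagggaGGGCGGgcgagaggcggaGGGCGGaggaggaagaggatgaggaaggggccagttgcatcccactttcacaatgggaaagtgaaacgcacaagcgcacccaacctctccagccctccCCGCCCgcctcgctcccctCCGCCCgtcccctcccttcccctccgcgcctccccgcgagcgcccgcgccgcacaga
Sema7a: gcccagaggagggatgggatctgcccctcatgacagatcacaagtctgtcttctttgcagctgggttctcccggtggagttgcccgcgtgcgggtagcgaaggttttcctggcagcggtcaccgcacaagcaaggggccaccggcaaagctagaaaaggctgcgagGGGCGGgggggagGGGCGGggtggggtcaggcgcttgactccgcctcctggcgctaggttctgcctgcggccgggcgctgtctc
The word occurs once in the Nrp1 run, 4 times in that of Plxnc1 and 2 times in that of Sema7a. RefSeq held windows of 300 bases (250 before and 50 after a start) for 26 of the 31 members, 37 windows in all, some of them from nearby starts of the same gene. Of these 27 (73.0%) held GGGCGG on either strand, against 35.7% of all 32851 windows. The member windows were also richer in G and C, with a median of 63.7% against 52.7%. CANNTG, the E-box that basic helix-loop-helix factors bind, was in 21 of the 37 (56.8%) against 72.3% of all windows. AGGTCA, a nuclear receptor core, was in 7 (18.9%) against 16.3%, CTTTGA, the word that TCF and LEF factors bind, was in 3 (8.11%) against 16.0%, and TAATTA, a homeodomain core, was in 0 against 5.29%. These words are descriptions of the windows, and were not compared between members higher in one nucleus or another.

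Nearly all members were detected in these neurons, over a wide range of levels. Averaged over the 11 libraries, 17 members reached at least 10 CPM, 7 lay between 2 and 10 CPM and 7 were under 2 CPM. Per kb of exonic length, the scale used wherever members are compared with each other, Sema6a was the highest member in dLG (15.6 ± 1.26 CPM per kb, SD, n = 4) and in VPM (11.4 ± 2.596, SD, n = 4). Sema6a is a transmembrane ligand of Plxna2 and Plxna4. Plxna1 was the highest in MGv (9.84 ± 3.10 CPM per kb, SD, n = 3), where it and Sema6a (8.08 ± 0.442) differed by less than the spread of Plxna1. Sema4a came next, at 7.60 ± 1.14, 7.0 ± 2.49 and 6.93 ± 0.370 CPM per kb in dLG, VPM and MGv, and did not differ beyond its spread from Plxna1 in dLG (6.57 ± 0.504) or VPM (5.76 ± 1.42). Secreted ligands lay much lower. Of the class 3 semaphorins Sema3f in MGv had the highest level per length, 2.89 ± 0.222 CPM per kb. At the other end Plxnb3, a class B plexin, had 0 counts in all 11 libraries, which allows a level of up to 0.127 to 0.295 CPM. Sema3d had 6 counts in the 4 dLG libraries together, 27 in VPM and 35 in MGv. These were the 2 members that did not pass the filter on low counts, and the other 29 were tested.

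**Figure D1:**
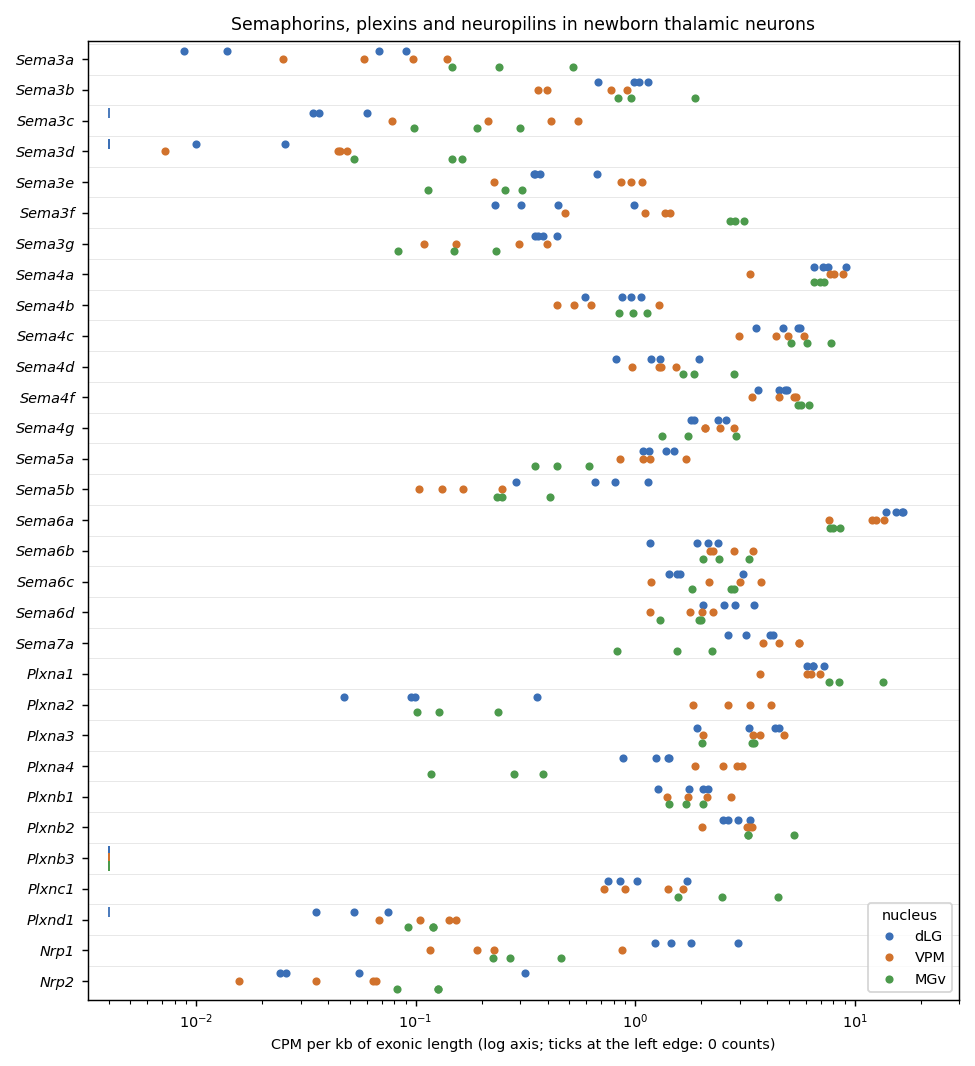
CPM per kb of exonic length (log axis) of each of the 31 members in each of the 11 libraries, coloured by nucleus, with ticks at the left edge for libraries with 0 counts. Sema6a, Plxna1 and Sema4a sit at the right, Plxnb3 has 0 counts throughout, the 3 nuclei of Plxna4 do not overlap, and Plxna2 in VPM, Nrp1 in dLG and Sema3f in MGv lie above both other nuclei.

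Each pair of nuclei was compared in a single edgeR quasi-likelihood model over all 11 libraries, with p-values adjusted over the 15907 genes tested and a gene called at an adjusted p under 0.1. All adjusted p-values given for genes come from it, and differences are on the log2 scale with their standard error. Between dLG and VPM 5 of the 29 members were called, against 10.7% of all genes tested. Higher in dLG were 2, Sema5b and Nrp1 (4.97% of all genes), and higher in VPM were 3, Sema3c, Plxna2 and Plxna4 (5.74% of all genes). The contrast of dLG with MGv called 9, against 16.1% of all genes. Higher in dLG were 5, Sema5a, Sema6a, Sema7a, Plxna4 and Nrp1 (8.61% of all genes), and higher in MGv were 4, Sema3a, Sema3c, Sema3f and Plxnc1 (7.49%). The contrast of VPM with MGv called 10, against 19.0% of all genes. Higher in VPM were 6, Sema3e, Sema5a, Sema6a, Sema7a, Plxna2 and Plxna4 (10.4% of all genes), and higher in MGv were 4, Sema3a, Sema3f, Plxna1 and Plxnc1 (8.56%). The 3 contrasts share libraries, so their counts are not independent of one another. In all, 13 members were called in at least 1 contrast, 8 semaphorins, 4 plexins and Nrp1, against 28.3% of all genes tested.

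The direction of these calls was mixed within every contrast. The median log2 difference of the 29 members was -0.06, -0.07 and 0.05 for dLG over VPM, dLG over MGv and VPM over MGv, beside 0.00, 0.02 and 0.02 over all genes tested. The median size of the difference, regardless of sign, was 0.45, 0.64 and 0.64, beside 0.27, 0.32 and 0.36 over all genes. This gap depended on the count filter. With no filter the median sizes were 0.48, 0.66 and 0.69 for the members, beside 0.50, 0.65 and 0.73 over all genes. Scaling by total counts in place of TMM moved the median of all genes by up to 0.1 and turned the split of all genes called between dLG and VPM from 791 (dLG higher) and 913 (VPM higher) into 1075 and 685. That between VPM and MGv turned from 1654 (VPM higher) and 1362 (MGv higher) into 1389 and 1512. The split of the members between dLG and VPM was 2 and 3 under either scaling. Between VPM and MGv it became 5 higher in each nucleus under total counts. The members called between dLG and VPM rose to 8 without VPM replicate 3, and to 8 without the 3 libraries low in Hspa8. Over all genes the calls there rose from 1704 of 15907 to 2223 of 15826 and 2618 of 16234. Between dLG and MGv 14 members were called without these 3 libraries, where all genes called rose from 2562 to 3209. Without MGv replicate 3, the shallowest library, 5 members were called between VPM and MGv, all higher in VPM. All genes called there fell from 3016 of 15907 to 2024 of 16566.

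Of the 29 members 10 stood apart from both other nuclei in at least 1 way, against 15.7% of all genes tested. Higher in dLG than in each was Nrp1 (2.04% of all genes did so), and lower in dLG than in each was Sema3c (2.18%). Higher in VPM than in each were Plxna2 and Plxna4 (2.41% of all genes), and lower in VPM than in each were 0 members (1.97%) by edgeR, 0 at an unadjusted p under 0.05 and 0 by DESeq2. In the single contrasts 9, 14 and 12 members had an unadjusted p under 0.05. The share of all genes at that cut was not taken, so these numbers cannot be set against it. Higher in MGv than in each were Sema3a, Sema3f and Plxnc1 (3.66%), and lower in MGv than in each were Sema5a, Sema6a, Sema7a and Plxna4 (5.22%).

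**Figure D2:**
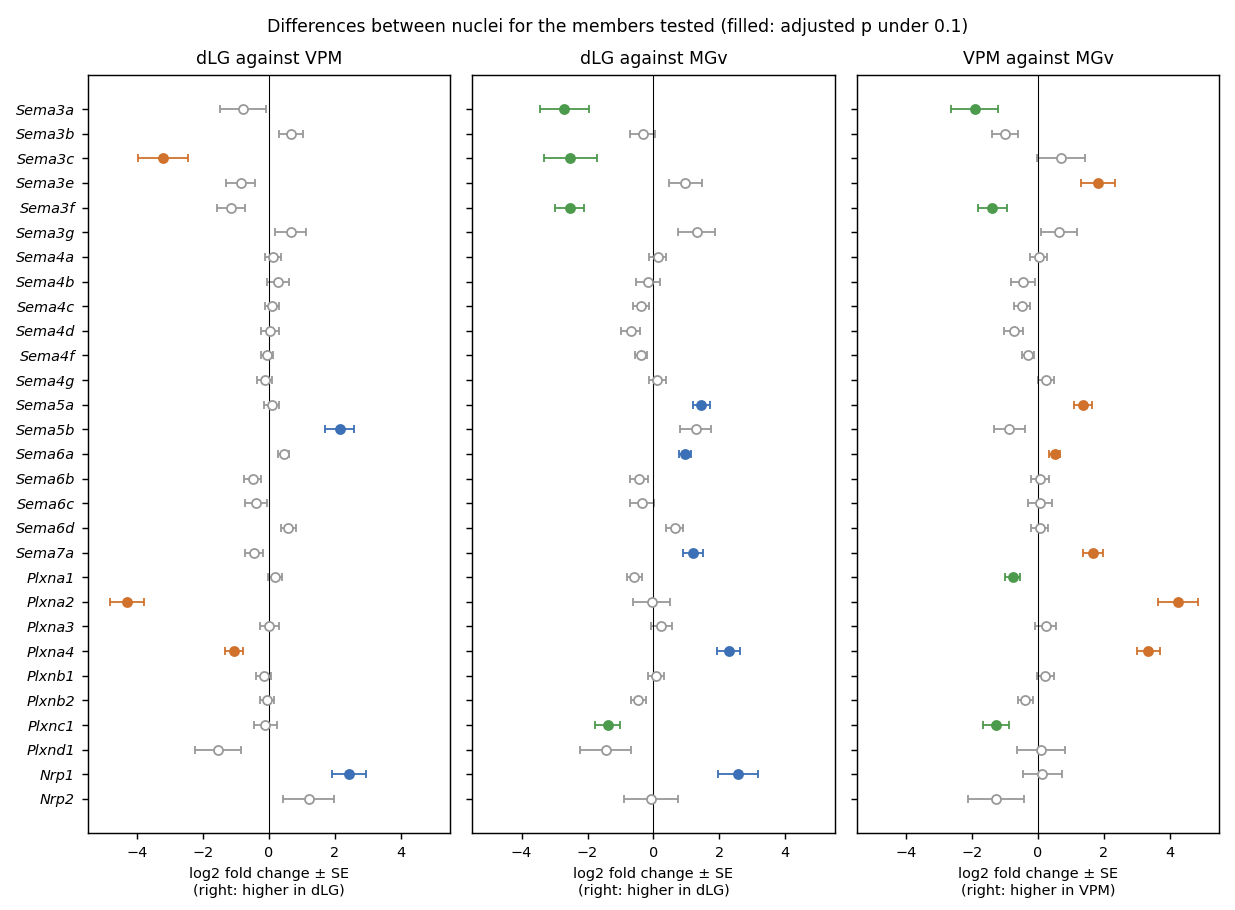
Log2 fold change ± SE of the 29 members tested, for each of the 3 pairs of nuclei, filled and coloured by the higher nucleus where the adjusted p was under 0.1. Plxna2 lies farthest from 0, 4.30 below it for dLG against VPM and 4.25 above it for VPM against MGv, and the class 4 semaphorins lie between -0.73 and 0.27 in all 3 panels with open symbols.

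The class A plexins, the signalling receptors for class 3, 5 and 6 semaphorins, held the largest difference among the 29 members tested. Plxna2 (chr1:194618218-194816869, plus strand), a receptor for Sema6a and, with a neuropilin, for class 3 ligands, was almost restricted to VPM at this depth. In the VPM libraries 1 to 4 it stood at 71.3, 57.3, 31.4 and 45.5 CPM. In dLG it stood at 1.71, 6.10, 1.63 and 0.811 CPM, and in MGv at 4.06, 2.19 and 1.75 CPM. The lowest VPM library was above every other library. Plxna2 was 19.7-fold higher in VPM than in dLG (log2 4.30 ± 0.51, adjusted p = 0.000147) and 19.0-fold higher than in MGv (log2 4.25 ± 0.59, adjusted p = 0.000325). Between dLG and MGv its level did not pass the test (log2 -0.05 ± 0.56, adjusted p = 0.975). Its highest dLG level came from replicate 2, and without that library the log2 difference of dLG minus VPM was -5.24 in place of -4.30.

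Plxna4 (chr6:32144268-32588192, minus strand), which pairs with Nrp1 as the receptor for Sema3a and also binds Sema6a, differed in every contrast. It stood at 43.2, 40.9, 26.5 and 35.5 CPM in VPM, at 19.9, 17.6, 12.4 and 20.04 CPM in dLG, and at 1.65, 3.95 and 5.35 CPM in MGv. The 3 nuclei did not overlap, with VPM at the top and MGv at the bottom. It was 2.09-fold higher in VPM than in dLG (log2 1.06 ± 0.27, adjusted p = 0.0296), 4.84-fold higher in dLG than in MGv (log2 2.28 ± 0.34, adjusted p = 0.000507) and 10.1-fold higher in VPM than in MGv (log2 3.34 ± 0.35, adjusted p = 3.27e-05). An antisense gene, Plxna4os3, overlaps 0.78% of its exonic bases, and reads of the 2 strands cannot be told apart because no source used here says that strand was used in counting.

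Plxna1 (chr6:89316314-89362620, minus strand), a receptor for Sema6d and for class 3 and class 5 semaphorins, was the most abundant plexin per length in all 3 nuclei. It stood at 58.6, 58.2, 55.1 and 65.9 CPM in dLG, at 63.0, 54.8, 33.6 and 57.3 CPM in VPM, and at 76.7, 69.3 and 121 CPM in MGv. Every MGv library was above every library of the other nuclei, and MGv replicate 3 was far above the rest. Plxna1 was 1.70-fold higher in MGv than in VPM (log2 0.77 ± 0.22, adjusted p = 0.0335), a call that was lost without MGv replicate 3 (adjusted p = 0.210). Its difference between MGv and dLG did not pass (log2 0.58 ± 0.22, adjusted p = 0.110). The antisense gene Gm26811 overlaps 10.7% of its exonic bases, so part of its counts may belong to either gene. Plxna3, a partner of Nrp2 for Sema3f, stood between 15.1 and 37.4 CPM in all libraries and was not called. Its approximate 95% intervals of the log2 differences ran from -0.56 to 0.87 over the 3 contrasts.

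The class A plexins thus made up a different mix in each nucleus. Of their summed RNA per length, Plxna1 held 57.7% ± 5.40 in dLG, 38.9% ± 0.288 in VPM and 74.0% ± 6.67 in MGv, as mean ± SD of 4, 4 and 3 libraries. Plxna2 held 20.02% ± 2.96 in VPM against 1.41% ± 1.46 in dLG and 1.29% ± 0.810 in MGv. Its share was 0.692% in dLG without dLG replicate 2 and 0.848% in MGv without MGv replicate 1. Plxna4 held 17.7% ± 1.85 in VPM, 10.8% ± 1.70 in dLG and 1.9% ± 0.720 in MGv, again without overlap. The share of Plxna3 was 30.1% ± 7.41 in dLG, 23.3% ± 3.95 in VPM and 22.9% ± 6.39 in MGv, which overlapped. The summed level itself was 11.5 ± 1.55, 14.8 ± 3.69 and 13.2 ± 3.53 CPM per kb in dLG, VPM and MGv, and differed by less than the spread in VPM. VPM replicate 3 had the lowest CPM of the VPM libraries for each of the 4 genes, whereas the share of Plxna1 lay between 38.5 and 39.2% in all VPM libraries and that of Plxna2 between 16.3 and 23.3%.

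**Figure D3:**
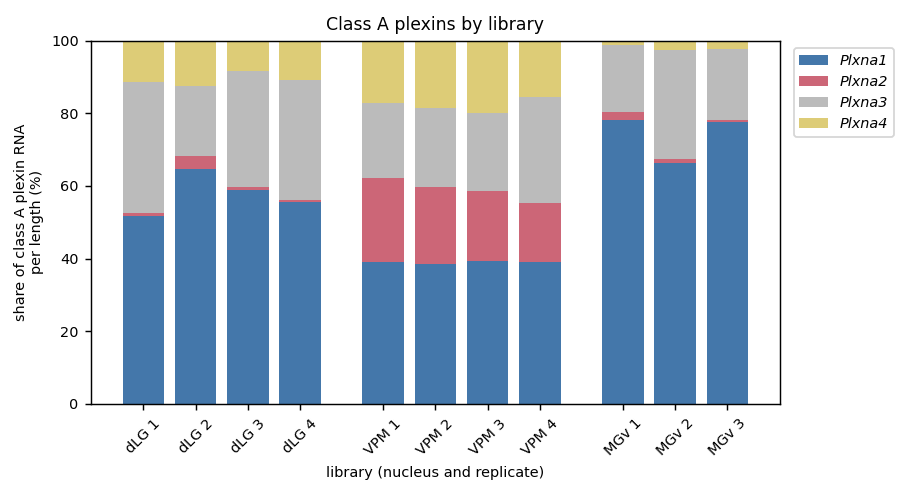
Share (%) of the summed class A plexin RNA per kb of exonic length held by Plxna1, Plxna2, Plxna3 and Plxna4 in each of the 11 libraries, as stacked bars. Plxna2 takes 16.3 to 23.3% in the VPM libraries and at most 3.57% in any other library, and Plxna1 takes 66.3 to 78.1% in MGv.

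Of the neuropilins Nrp1 was called and Nrp2 was not. Nrp1 (chr8:128358604-128503363, plus strand), the coreceptor that binds Sema3a and other class 3 ligands, stood at 17.6, 28.8, 12.04 and 14.2 CPM in dLG, at 2.23, 1.86, 8.50 and 1.14 CPM in VPM and at 2.63, 2.19 and 4.47 CPM in MGv. The lowest dLG library was above all others, and VPM replicate 3 was the highest outside dLG. Nrp1 was 5.38-fold higher in dLG than in VPM (log2 2.43 ± 0.52, adjusted p = 0.0110) and 5.89-fold higher than in MGv (log2 2.56 ± 0.60, adjusted p = 0.0121). Without VPM replicate 3 the difference from VPM was 3.38 on the log2 scale. Nrp1 is also a receptor of endothelial cells. Endothelial markers summed to 2.36 to 6.35 CPM in dLG, 2.67 to 6.67 in VPM and 0.292 to 2.28 in MGv with Cdh5 at 0 in every library. Their sum was thus lower in MGv than in dLG without overlap, but of the single markers only Tek was. Tek stood at 1.81 to 5.49 CPM in dLG and 0 to 0.263 in MGv. Kdr (0 to 0.172 CPM in dLG, 0 to 1.14 in MGv), Pecam1, Flt1 and Cldn5 overlapped. The part of these markers in the Nrp1 difference was not tested. Nrp2, which binds Sema3f, was scarce, with means of 1.25, 0.536 and 1.32 CPM in dLG, VPM and MGv, and was not called (lowest adjusted p = 0.356). Its approximate 95% intervals reached from -2.93 to 2.72 on the log2 scale. Nrp1 held 95.7% ± 3.85 of neuropilin RNA per length in dLG (SD, n = 4), 80.9% ± 14.7 in VPM and 72.2% ± 11.0 in MGv (SD, n = 3).

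Of the 7 secreted class 3 semaphorins 4 were called in at least 1 contrast, beside 28.3% of all genes, and all of these stood at 16.3 CPM or less in every library. Sema3f (chr9:107681500-107710475, minus strand), a ligand for Nrp2, stood at 16.3, 14.0 and 14.8 CPM in MGv, at 7.09, 5.76, 2.48 and 7.51 CPM in VPM and at 2.31, 5.11, 1.20 and 1.58 CPM in dLG. The MGv libraries were all above the other 8, while VPM and dLG overlapped. Sema3f was 5.84-fold higher in MGv than in dLG (log2 2.55 ± 0.45, adjusted p = 0.00195) and 2.62-fold higher than in VPM (log2 1.39 ± 0.43, adjusted p = 0.0504). The second call was lost without VPM replicate 2, MGv replicate 1 or MGv replicate 3 (adjusted p = 0.102, 0.131 and 0.119), and without dLG replicate 2 the log2 difference of dLG minus MGv was -3.15 in place of -2.55.

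Sema3a (chr5:13125414-13602565, plus strand), the classic growth cone collapsing ligand of Nrp1, was low in all nuclei. It stood at 2.03, 3.34 and 7.19 CPM in MGv, at 1.34, 0.346, 1.92 and 0.808 CPM in VPM and at 0.122, 0.945, 1.25 and 0.191 CPM in dLG. All MGv libraries were above the others, by a small margin over VPM. It was 6.53-fold higher in MGv than in dLG (log2 2.71 ± 0.74, adjusted p = 0.0289) and 3.79-fold higher than in VPM (log2 1.92 ± 0.72, adjusted p = 0.0982). Without MGv replicate 3 both calls were lost (adjusted p = 0.163 and 0.381), and the second was also lost without dLG replicate 2, VPM replicates 1, 2 or 4, or MGv replicate 2 (adjusted p = 0.106 to 0.203). The call against VPM was further lost with DESeq2 size factors, with the replicate number as a block and with counts thinned to the smallest total.

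Sema3c (chr5:17574281-17730268, plus strand), which binds Nrp1 and Nrp2 and can attract axons, was nearly absent from dLG. Its dLG libraries held 0 to 9 counts, or 0.244, 0.258, 0 and 0.430 CPM. It stood at 2.97, 3.94, 0.558 and 1.52 CPM in VPM and at 1.35, 0.702 and 2.14 CPM in MGv. Every library of VPM and MGv was above every dLG library. The difference from dLG was 3.22 ± 0.76 on the log2 scale for VPM (adjusted p = 0.0187) and 2.52 ± 0.81 for MGv (adjusted p = 0.0595), the latter lost without dLG replicate 1, MGv replicate 1 or MGv replicate 3 (adjusted p = 0.122, 0.111 and 0.208). The call against MGv was also lost with limma voom, with the replicate number as a block and with counts thinned to the smallest total. The call against VPM held in the 20 of 22 alternatives that tested Sema3c. With dLG and VPM fitted alone, or with at least 10 counts in every library, Sema3c did not pass the filter. The size of both differences rests on the 0 to 9 counts of dLG. Sema3e (chr5:14025276-14256689, plus strand), which binds Plxnd1 without a neuropilin, stood at 8.85, 9.996, 2.11 and 8.04 CPM in VPM, at 6.21, 3.22, 3.43 and 3.25 CPM in dLG and at 1.05, 2.37 and 2.82 CPM in MGv. It was 3.52-fold higher in VPM than in MGv (log2 1.82 ± 0.51, adjusted p = 0.0308), although VPM replicate 3 lay among the MGv libraries, and the call was lost without MGv replicate 1 (adjusted p = 0.118). Sema3b and Sema3g stood between 0.376 and 8.94 CPM and were not called (lowest adjusted p = 0.118).

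**Figure D4:**
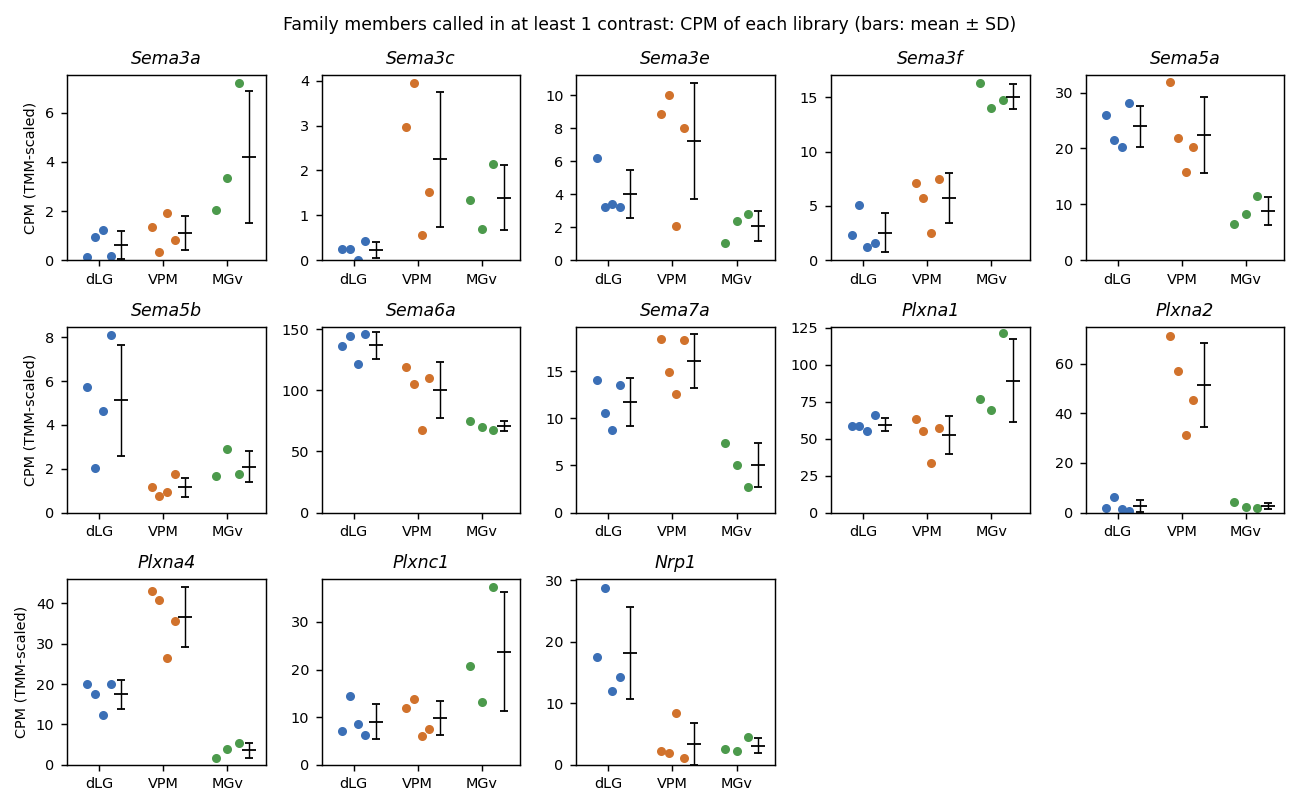
CPM of each library, as a point, for the 13 members called in at least 1 contrast, with dLG, VPM and MGv side by side, separate vertical axes that start at 0, and bars for mean ± SD. The VPM points of Plxna2, from 31.4 to 71.3 CPM, lie far above those of dLG and MGv, and single high MGv points stand out for Sema3a, Plxna1 and Plxnc1.

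Of the membrane-bound ligands of classes 5 to 7, Sema5a, Sema6a and Sema7a were lower in MGv than in each other nucleus (5.22% of all genes). Sema5b was called only between dLG and VPM, and Sema6b, Sema6c and Sema6d were not called. Sema6a stood at 136, 144, 122 and 146 CPM in dLG, at 119, 105, 67.2 and 110 CPM in VPM and at 75.1, 70.0 and 67.6 CPM in MGv. All dLG libraries were above the others, and VPM replicate 3 was the lowest of all 11. Sema6a was 1.93-fold higher in dLG than in MGv (log2 0.95 ± 0.18, adjusted p = 0.00264). Its difference between VPM and MGv was small (log2 0.50 ± 0.17, adjusted p = 0.0744) and lost its call without any 1 of the MGv libraries or of VPM replicates 1, 2 and 4 (adjusted p = 0.125 to 0.198). This call was also lost with total counts, with the replicate number as a block and in a fit of these 2 nuclei alone. The difference between dLG and VPM did not pass (log2 0.45 ± 0.16, adjusted p = 0.115).

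Sema5a (chr15:32244810-32696341, plus strand), a ligand of Plxna1 and Plxna3, stood at 25.9, 21.5, 20.2 and 28.1 CPM in dLG, at 31.9, 21.9, 15.9 and 20.2 CPM in VPM and at 6.54, 8.25 and 11.5 CPM in MGv. All MGv libraries were below all others. It was 2.74-fold higher in dLG than in MGv (log2 1.46 ± 0.27, adjusted p = 0.00238) and 2.58-fold higher in VPM (log2 1.37 ± 0.26, adjusted p = 0.00393). Its close relative Sema5b (chr16:35541145-35664732, plus strand) followed another pattern. It stood at 5.72, 2.02, 4.63 and 8.11 CPM in dLG, at 1.16, 0.736, 0.930 and 1.76 CPM in VPM and at 1.65, 2.90 and 1.75 CPM in MGv. Its dLG libraries were above all VPM libraries and overlapped with MGv. The difference between dLG and VPM was 4.44-fold (log2 2.15 ± 0.44, adjusted p = 0.00771), and that between dLG and MGv fell just short of the threshold (log2 1.28 ± 0.47, adjusted p = 0.103).

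Sema7a and its receptor Plxnc1 differed in opposite directions. Sema7a (chr9:57940112-57962865, plus strand), which promotes axon growth and also binds beta 1 integrins, stood at 14.1, 10.6, 8.77 and 13.6 CPM in dLG, at 18.5, 14.9, 12.6 and 18.3 CPM in VPM and at 7.36, 5.09 and 2.72 CPM in MGv. The MGv libraries were below all others. It was 2.301-fold higher in dLG than in MGv (log2 1.20 ± 0.31, adjusted p = 0.0190) and 3.15-fold higher in VPM (log2 1.66 ± 0.31, adjusted p = 0.00302). Plxnc1 (chr10:94790866-94944835, minus strand) stood at 20.8, 13.1 and 37.4 CPM in MGv, at 7.12, 14.4, 8.50 and 6.30 CPM in dLG and at 11.8, 13.7, 6.02 and 7.51 CPM in VPM. MGv replicate 2 lay among the libraries of the other nuclei, and replicate 3 was the highest of all. Plxnc1 was 2.61-fold higher in MGv than in dLG (log2 1.38 ± 0.38, adjusted p = 0.0296) and 2.42-fold higher than in VPM (log2 1.28 ± 0.38, adjusted p = 0.0418). Without MGv replicate 3 both calls were lost (adjusted p = 0.211 and 0.257). The call against VPM was also lost with the replicate number as a block. MGv replicate 3 was the lowest of all 11 in Sema7a, whose calls held without it.

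The remaining 16 members that were tested did not pass in any contrast. Their intervals do not exclude differences as large as some that were called. These were Sema3b, Sema3g, the 6 class 4 semaphorins, Sema6b, Sema6c, Sema6d, Plxna3, Plxnb1, Plxnb2, Plxnd1 and Nrp2. The ratio of the highest to the lowest nucleus mean was between 1.10 and 2.87 for them, with a median of 1.39. The 6 class 4 semaphorins were not called in any contrast, with approximate 95% intervals of the log2 difference between -1.30 and 0.92 over all 3 contrasts. These intervals use a normal quantile and are narrower than the F test implies. Sema4d, a ligand of Plxnb1, came closest, with 16.2 ± 4.75 CPM in MGv (SD, n = 3) and 9.78 ± 1.80 in VPM (SD, n = 4), libraries that did not overlap (log2 0.73 ± 0.29, adjusted p = 0.115). Sema4a stood between 18.1 and 49.6 CPM in the 11 libraries, Sema4f between 17.99 and 32.7 CPM and Sema4c between 13.7 and 35.9 CPM. The lowest library for each of these was VPM replicate 3. Plxnb1 and Plxnb2, the class B receptors, stood at 12.2 to 26.2 and 15.6 to 40.8 CPM, with intervals between -0.90 and 0.71. Antisense genes overlap 7.27% of the exonic bases of Sema4c and 2.68% of those of Plxnb1, and 27 of the 31 members have no such overlap. Sema6d, a ligand of Plxna1, averaged 28.7 ± 6.45 CPM in dLG, 19.1 ± 5.0 in VPM and 18.5 ± 4.15 in MGv and came close to the threshold against MGv (adjusted p = 0.134). Plxnd1 was close to the limit of detection, with means of 0.297, 0.852 and 0.810 CPM in dLG, VPM and MGv and intervals between -2.97 and 1.53.

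VPM replicate 3 had the lowest CPM of the 4 VPM libraries for 23 of the 29 members tested and the highest for 4, Sema3a, Sema3b, Sema4g and Nrp1. Over all genes tested it was the lowest for 41.8% and the highest for 34.5%. This library is 1 of the 3 low in Hspa8, and the part of that in the members' levels was not tested. The called differences in which VPM was the higher nucleus were called without it too.

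Set side by side, known ligand and receptor pairs were distributed differently over the nuclei. Nrp1 and Plxna4, which together receive Sema3a, were both above MGv in dLG, where they stood at means of 18.2 ± 7.44 and 17.5 ± 3.59 CPM (SD, n = 4). In MGv they stood at 3.10 ± 1.21 and 3.65 ± 1.87 CPM (SD, n = 3). Sema3a was highest in MGv, but only at 2.03 to 7.19 CPM, and both its calls were lost without MGv replicate 3. VPM had the highest Plxna4 with little Nrp1 (3.43 ± 3.41 CPM). Sema3f was highest in MGv while its receptors Nrp2 and Plxna3 did not pass the test between any nuclei. Sema6a was abundant in all 3 nuclei, and its receptors Plxna2 and Plxna4 were both highest in VPM. In MGv Sema5a was lowest, and Plxna1 had its highest mean. Sema3e was found in all nuclei, and its receptor Plxnd1 in none above 1.11 CPM. Ligand and receptor RNA were measured in the same pooled neurons, so these values do not say whether a neuron holds both.

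Genes that act with plexins inside or beside the membrane were given from lists of 56 genes in all, of which 50 were tested. Between dLG and VPM 9 of these were called, 4 with the higher level in dLG, against 10.7% of all genes. The contrast of dLG with MGv called 10 (2 higher in dLG), against 16.1%, and that of VPM with MGv called 8 (4 higher in VPM), against 19.0%, so the last was no larger a share than among all genes. The numbers of calls between dLG and VPM ranged from 5 to 14 when single libraries were left out, the highest without VPM replicate 3 and the lowest without dLG replicates 3 or 4 or VPM replicates 1, 2 or 4. Those between dLG and MGv fell to 6 without MGv replicate 1, and those between VPM and MGv to 5 without VPM replicate 2 or MGv replicate 2.

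Collapsin response mediators, cytoplasmic proteins that carry the Sema3a signal to microtubules, had their calls against dLG in 1 direction. Of the 5, 4 were called between dLG and MGv, all higher in MGv (7.49% of all genes). Between dLG and VPM 2 were called, both higher in VPM (5.74% of all genes). Dpysl2, the fifth, was not called, with means of 266 ± 36.7, 279 ± 55.6 and 233 ± 28.9 CPM in dLG, VPM and MGv. Dpysl5 stood at 277, 295, 228 and 273 CPM in dLG, at 384, 359, 252 and 338 CPM in VPM and at 536, 529 and 615 CPM in MGv. MGv was above all other libraries, and Dpysl5 was higher there than in dLG by 1.06 ± 0.15 on the log2 scale (adjusted p = 0.000392) and than in VPM by 0.75 ± 0.15 (adjusted p = 0.00508). Dpysl3 had means of 3076 ± 238 CPM in dLG (SD, n = 4), 4027 ± 364 in VPM and 4932 ± 553 in MGv (SD, n = 3), a difference of 0.68 ± 0.12 between dLG and MGv (adjusted p = 0.00233) and of 0.39 ± 0.12 between dLG and VPM (adjusted p = 0.0583). Crmp1 was lower in dLG (1452 ± 145 CPM) than in VPM (2073 ± 89.8 CPM, adjusted p = 0.0114) and in MGv (2008 ± 191 CPM, adjusted p = 0.0195). Dpysl4 was the fourth of them (116 ± 24.7 against 177 ± 36.8 CPM in MGv, adjusted p = 0.0567) and was named after its values were seen.

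Of the 13 kinases and adaptors, Fes had by far the widest range. Fes is a tyrosine kinase that binds class A plexins and phosphorylates collapsin response mediators. It stood at 15.6, 5.29, 10.3 and 17.0 CPM in dLG, at 0.834, 1.34, 0.868 and 1.62 CPM in VPM and at 0.150, 0.0878 and 0.680 CPM in MGv, the last from 2, 1 and 7 counts. Its dLG libraries were above all others, as for Nrp1. The difference between dLG and VPM was 3.35 ± 0.45 on the log2 scale (adjusted p = 0.000387) and that between dLG and MGv 5.33 ± 0.63 (adjusted p = 8.63e-05), the size of the latter resting on the few MGv counts. Mical1, an enzyme that oxidises actin and binds plexins, was higher in VPM (31.7 ± 5.81 CPM) than in dLG (22.7 ± 2.20 CPM, adjusted p = 0.0947).

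Of the 14 coreceptors and other semaphorin receptors 10 were tested, of which 3 were called for dLG against VPM, 3 for dLG against MGv and 1 for VPM against MGv, beside 10.7%, 16.1% and 19.0% of all genes. Nrcam, an adhesion protein that associates with neuropilins, was lower in MGv (129 ± 16.4 CPM) than in dLG (173 ± 14.0 CPM, adjusted p = 0.0869) and VPM (185 ± 28.7 CPM, adjusted p = 0.0343). Cntn2, an axonal adhesion protein, was higher in MGv (24.4 ± 5.02 CPM) than in dLG (11.8 ± 3.37 CPM, adjusted p = 0.0215). The other calls were of genes at low levels, named after their values were seen. Kdr, a receptor of endothelial cells, was higher in VPM (2.10 ± 0.661 CPM, adjusted p = 0.004998) and in MGv (0.706 ± 0.617 CPM, adjusted p = 0.0479) than in dLG (0.0718 ± 0.0721 CPM). Kdr is itself among the endothelial markers. Of the others, Flt1 stood at 0 to 0.334 CPM in dLG and 0.496 to 1.58 in VPM, and Tek at 1.81 to 5.49 CPM in dLG and 0.806 to 1.9 in VPM. Their part in the Kdr difference was not tested. Tyrobp, an adaptor of microglia, was higher in VPM (1.94 ± 0.527 CPM) than in dLG (0.334 ± 0.213 CPM, adjusted p = 0.0202), and microglial markers, all 5 detected, summed to 2.48 to 15.5 CPM in VPM and 1.14 to 6.35 CPM in dLG. Their part in this difference was not tested. Gpc3, a proteoglycan, was higher in dLG (3.22 ± 0.937 CPM) than in VPM (0.854 ± 0.571 CPM, adjusted p = 0.0675).

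The calls were also made under 22 other settings of the processing or choices of libraries. Of the 24 calls of members, 15 held under every setting in which the gene was tested, among them all those of Plxna2, Plxna4, Nrp1, Sema5a, Sema5b and Sema7a, and 0 changed direction. Of the 9 calls that were lost under at least 1 setting, 8 were lost without MGv replicate 3.

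**Figure D5:**
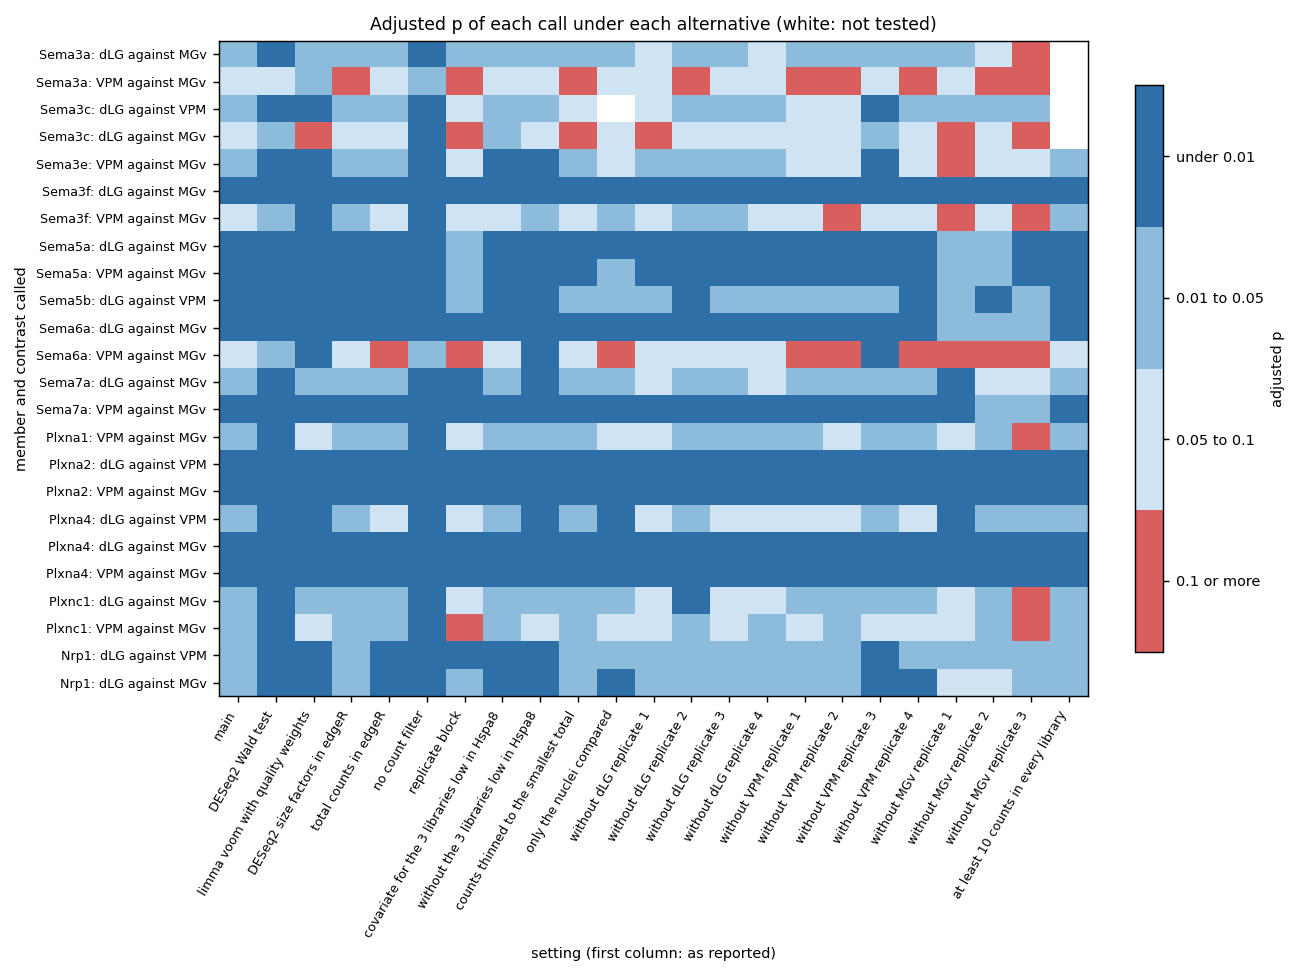
Adjusted p (colour) of each of the 24 calls of members, in rows, under each processing setting or choice of libraries, in columns, with the values as reported in the first column and white where a gene was not tested. Red cells, an adjusted p of 0.1 or more, gather in Sema3a and Sema6a for VPM against MGv and in the column without MGv replicate 3, and the rows of Plxna2, Plxna4 and Nrp1 have none.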

How the data were processed

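RNA of tdTomato neurons was sequenced as single reads of 50 bases after SMARTer amplification. Raw counts of reads per gene were deposited. To obtain them the authors trimmed (Trim Galore 0.6.1 with cutadapt 2.3), aligned to mm10 with STAR 2.7.0d and counted with featureCounts of Subread 1.6.4 in genes of Ensembl release 95, as the submitters' processing notes and the methods give them. The use of strand and of reads with several alignments was not given in the sources used here. Counts were neither normalized nor pooled.

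Groups and replicate numbers came from the sample titles. Symbols, positions (1-based) and exonic lengths came from GENCODE M21 on the same build, in which 54723 of the 54752 identifiers had a record. The filter filterByExpr passed 15907 of the 33170 genes that had 1 count or more. Genes were tested in R 4.3.3 with edgeR 4.0.16 by its quasi-likelihood test, with TMM scaling, 1 mean per nucleus over all 11 libraries, two-sided, Benjamini-Hochberg adjustment over all genes tested and a threshold of 0.1. The common biological coefficient of variation was 28.2%. A standard error is the size of the log2 fold change over the root of its F statistic, and CPM is TMM-scaled. The 95% intervals were made from this standard error with a normal quantile. They are therefore approximate and narrower than the F test implies, and some leave out 0 at an unadjusted p above 0.05. The labels do not say whether the pools of a nucleus came from separate litters, so p-values measure the spread between these libraries. Reads amplified without molecular identifiers are not independent molecules, so a limit from 3 counts covers counting error only. The fits were tested on simulated counts with 200 genes changed.

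Members and gene lists were chosen with earlier results of these data known. CPM of every library is given for members that were called and reached a mean of 2 CPM in a nucleus, and other members by means or ranges. Pathway genes named are up to 3 per contrast and direction with the largest change among those called with a mean of at least 10 CPM. A further list among the 56 pathway genes is not reported here by itself. The fits were repeated with limma 3.58.1 (voom with quality weights), with DESeq2 1.42.0, with its size factors in edgeR, with total counts instead of TMM, with the count filter dropped or set to 10 counts in all libraries, with the replicate number as a block, with a covariate for the 3 libraries low in Hspa8 or without them, with all libraries thinned to the lowest total, with 2 nuclei per fit, at a threshold of 0.05, and with single libraries left out. Shares were also taken without length. Promoters are RefSeq windows of GRCm38.p6. Protein sequences were not used here.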

Additional observations from a re-analysis of the deposited data

Results flagged for a closer look

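In the sets of 4 libraries, a member was listed where its highest or lowest library lay apart from the other 3 by more than Dixon's critical value at 95%. This was so in 6 of the 58 sets tested, and chance gives about 1 in 20. In dLG, replicate 1 had 6.21 CPM of Sema3e against 3.22 to 3.43 in the others. Replicate 4 had 18.4 CPM of Sema6c against 8.44 to 9.498. Replicate 2 had 6.10 CPM of Plxna2 against 0.811 to 1.71, and 3.74 CPM of Nrp2 against 0.286 to 0.654. In VPM, replicate 3 had 8.50 CPM of Nrp1 against 1.14 to 2.23, and 15.6 CPM of Plxnb2 against 25.1 to 26.4. Replicate 2 of dLG and replicate 3 of VPM, which hold 4 of the 6, are among the 3 libraries low in Hspa8, and the part of this was not tested.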

How the results depend on the processing

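Of the 24 calls of members, 15 held under all 22 alternatives in which the gene was tested and 9 were lost under at least 1, with 0 reversed. At an adjusted p under 0.05, 20 of the 24 would have been called. With DESeq2, which the study used, 7, 12 and 12 members were called for dLG and VPM, for dLG and MGv, and for VPM and MGv. Beside them 2363, 3123 and 3748 of all 15907 genes were called. Members called between dLG and VPM came to 13 with limma voom, 8 with a covariate for the 3 libraries low in Hspa8 and 8 without them, and to 5 to 8 when single libraries were left out, against 5 as reported. Between dLG and MGv, where 9 were reported, they came to 14 without the 3 libraries, 13 with the covariate and 13 with no count filter. When single libraries were left out they came to 6 to 13 there, and between VPM and MGv to 5 to 11, against 10. Pathway genes called between dLG and VPM came to 18 with voom, 5 with at least 10 counts in every library, 16 without the 3 libraries, 5 with thinned counts, 5 at an adjusted p under 0.05 and 5 to 14 with single libraries left out, against 9. Between dLG and MGv they came to 13 with voom and to 6 to 12 with single libraries left out, against 10. Between VPM and MGv they came to 14 with voom, 13 with the covariate, 13 without the 3 libraries, 5 at an adjusted p under 0.05 and 5 to 12 with single libraries left out, against 8. Over the whole table the calls between dLG and VPM moved too, from 1704 to 4414 with voom, 2394 with the covariate and 2618 without the 3 libraries. With single libraries left out they came to 1093 to 2223. Between dLG and MGv the whole table gave 3209 without the 3 libraries, 3295 with the covariate and 2915 of 33170 with no count filter, against 2562. It gave 1886 to 3300 there with single libraries left out. Between VPM and MGv the whole table gave 2024 to 3235 with single libraries left out, against 3016. The causes were not tested.

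Without correction for length the shares among class A plexins were 31.2% for Plxna1, 30.4% for Plxna2, 16.3% for Plxna3 and 22.1% for Plxna4 in VPM, 16.2% for Plxna4 and 2.54% for Plxna2 in dLG, and 2.46% for Plxna2 and 2.99% for Plxna4 in MGv. Shares of class 3 semaphorin RNA are not reported.

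With the replicate number as a block, 6, 8 and 8 members were called for dLG and VPM, for dLG and MGv, and for VPM and MGv. Beside them 1464, 2169 and 2695 of all 15907 genes were called. Of the 24 calls 4 were lost, Sema3c for dLG against MGv and Sema3a, Sema6a and Plxnc1 for VPM against MGv. The replicate numbers were not taken to pair the libraries. Deviations from the nucleus means correlated with a mean of 0.016 (-0.20 to 0.48) over the 10 pairs with the same number, and 4 of the 11 libraries were closest to one of their own number. With all libraries thinned to the smallest total, 7, 9 and 9 members were called in the same order of contrasts, beside 1513, 2302 and 2675 of all 14552 genes.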
